A study of Homo sapiens with 8 samples.

Results

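The 3′-most m6A peak of each gene with 4 or more listed peaks in HCT116 cells is described here. Peaks of the deposited list were grouped by gene identifier, genes with 4 or more listed peaks were kept, and in each gene the peak whose outer edge lay nearest the 3′ end on its strand was taken. This gave 1140 peaks on 1140 genes, which are 5.04% of the 22626 listed peaks and 9.49% of the 12009 genes with a peak. The choice used position and the number of peaks, and no fold change or enrichment. The same genes carry 3392 inner peaks and 1140 5′-most peaks, which serve for comparison.

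HCT116 is a human colorectal cancer cell line. One arm carried a stable short-hairpin knockdown of ALKBH5 (shALKBH5, 1 hairpin by its label), and the other was the control labelled shNC, whose genotype is given as WT. Each arm has 2 immunoprecipitation (IP) libraries made with an antibody against m6A and 2 input libraries, so 8 libraries fall into 4 groups of 2. Whether the 2 replicates of a group were cultured separately is not in the labels. Poly(A) RNA was chemically fragmented before the IP, and the labels name more than one m6A antibody and fragment size. Of 14 colorectal epithelial markers, 9 had a listed peak (among them EPCAM, CDH1, KRT8 and CDX2), against 1 of 6 fibroblast, 1 of 5 leukocyte and 0 of 3 hepatocyte markers. A gene without a listed peak may still be expressed.

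N6-methyladenosine (m6A) is placed on mRNA by a nuclear writer complex around METTL3 and METTL14, mostly at short motifs with a core such as GGAC, and ALKBH5 is a demethylase that removes it. In human mRNA m6A is known to gather around stop codons, in long last exons and in 3′ untranslated regions, and to be sparse close to splice junctions of internal exons. The peak nearest the 3′ end may therefore lie in the last exon, where reader proteins such as the YTHDF family and the IGF2BP family are known to bind. Whether the peaks described here lie in a last exon was not examined.

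The RNA letters under a few of these peaks could be read from RefSeq start-site windows (GRCh38.p14) of neighbouring genes that happen to overlap them. Not all of the 1140 peaks were searched, since the 19 with no gene symbol and the 47 of a single chromosome were left out. Among the peaks searched, 7 had at least 50 bases in such a window. The sense letters of 5 of the 7 held GGAC, none held GGACT, and the stretches read were 58 to 300 bases long. They are shown because these peaks have readable sequence, not because of their fold, and each line is 30 bases of the sense strand with every GGAC in capitals.
ZNF275: gacagaacatgatGGACcacGGACaccacc
WDR55: caagccgcagggtGGACgctggagacaaga
ZSWIM8: gggtcctatacagGGACccaggcctgtggc
DYNC1H1: aagttgaggagacGGACattgtcatgcagg
The ZNF275 letters lie at chrX:153351986-153352015, those of WDR55 at chr5:140673779-140673808, those of ZSWIM8 at chr10:73801534-73801563 and those of DYNC1H1 at chr14:102039142-102039171, all on the plus strand. The ZNF275 stretch of 300 bases held GGAC at 2 places on the sense strand and the reverse complement GTCC at 1. Of all 35116 RefSeq windows of that length, 66.3% held GGAC on their own sense strand, so a match at this length is common and marks no methylated site. The same share was 20.2% at the 62 bases read for WDR55, 48.2% at the 182 bases read for ZSWIM8 and 42.4% at the 151 bases read for DYNC1H1. In the authors' deposited table the enrichment of IP over input was 70.3-fold for the ZNF275 peak, 16.9-fold for WDR55, 3.45-fold for ZSWIM8 and 1.79-fold for DYNC1H1, a motor subunit of cytoplasmic dynein. The WDR55 and ZSWIM8 peaks share bases with a peak of another gene on the opposite strand, and the WDR55 peak was centred outside its RefSeq gene. Their gene and strand are therefore uncertain. None of the 4 peaks shown was called between the arms. By the authors' deposited table their log2 folds were -1.32, 0.28, 0.57 and 0.14.

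Values per library were not analysed here. Every enrichment, fold and false discovery rate (FDR) below is 1 value per peak from the authors' deposited table, so no replicate error can be given, the depth behind each value is unknown, and no test of one set of peaks against another was made. The numerator of the deposited log2 fold between shALKBH5 and shNC cells is not stated. Folds are therefore called positive or negative, and no sign is read as a gain or loss in the knockdown. Peaks with a deposited FDR of at most 0.05 are called. The sources used here do not say whether the fold was corrected for transcript level or whether its p rests on the spread between replicates. A change in m6A and a change in transcript level cannot be told apart.

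The genes behind these peaks were mostly protein-coding. A RefSeq gene matched 1121 of the 1140 peaks by symbol, of which 1078 were protein-coding, 33 long non-coding and 10 pseudogenes, and 19 peaks had no symbol. Of the genes, 606 (53.2%) had 4 listed peaks, 276 had 5, 127 had 6 and the rest had up to 23. Among the genes with most listed peaks were AHNAK2, a giant scaffold protein gene with 23 listed peaks, the myosin phosphatase adaptor gene MPRIP with 16, the plakin gene EPPK1 with 14 and the centrosomal gene ALMS1 with 13. Some listed peaks repeat one another. The 14 listed peaks of EPPK1 form overlapping pairs, so it has fewer separate peaks than listed. After overlapping peaks of a gene were merged, 1106 of the 1140 genes still had 4 or more and 34 did not. AHNAK2 is among the 34, since one of its listed peaks spans most of the others.

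The 3′-most peaks lay a median of 1590 bases from the annotated 3′ end of their gene (quartiles 580 and 4140), measured from the peak's centre. This uses the 1085 peaks centred inside the matched RefSeq gene. Within 1000 bases of the end lay 416 of them (38.3%, exact binomial 95% interval 35.4 to 41.3), and within 5000 bases 79.6%. Inner peaks lay a median of 10356 bases away and 5′-most peaks 30262 bases away, an order that the choice by position fixes. In genes with fewer peaks the 3′-most peak was within 1000 bases in 40.8% of genes with 3 peaks, 36.5% of genes with 2 and 33.1% of genes with 1. The first and last listed peaks of a gene were a median of 28915 genomic bases apart, introns included. The next peak upstream began a median of 898 bases from the 3′-most peak, with quartiles of 238 and 4979.

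**Figure D1:**
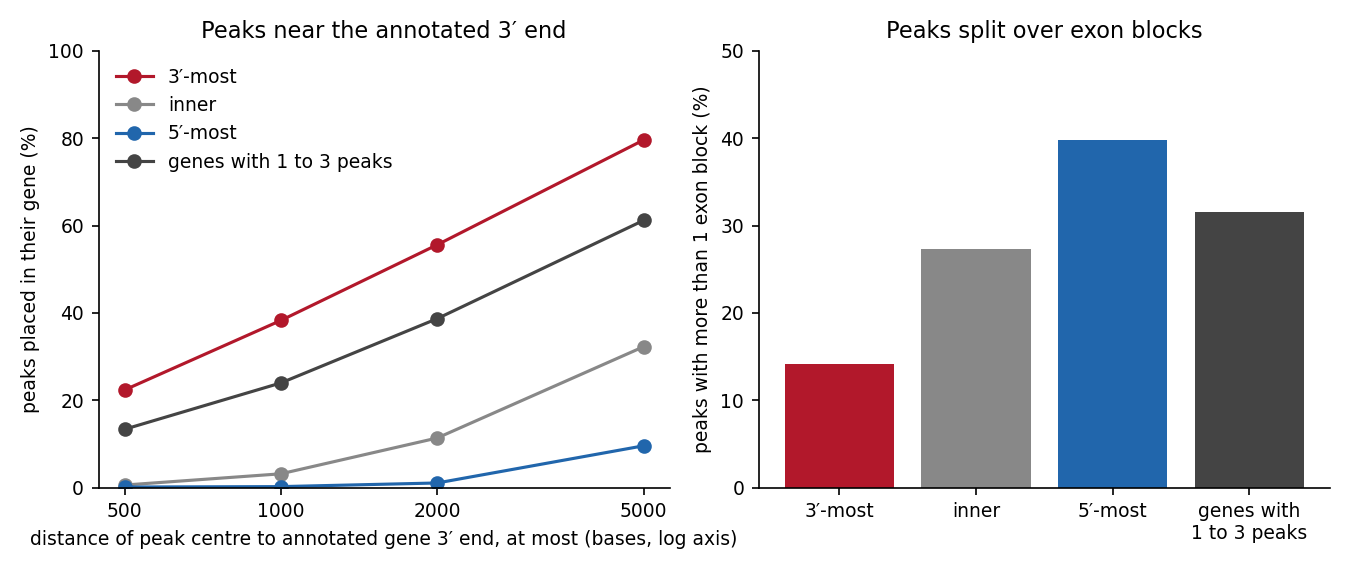
Left, the share of peaks (in %, of those placed in their RefSeq gene) whose centre lies within 500, 1000, 2000 or 5000 bases of the annotated 3′ end (log axis), for 3′-most, inner and 5′-most peaks of genes with 4 or more peaks and for peaks of genes with 1 to 3. Right, bars give the share of peaks (in %) with more than 1 exon block, which is 14.2% for 3′-most peaks, 27.3% for inner, 39.8% for 5′-most and 31.5% for genes with 1 to 3 peaks.

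Most 3′-most peaks sat in 1 exon block. Only 162 of 1140 (14.2%, exact binomial 95% interval 12.2 to 16.4, which covers counting of peaks only) were split over more than 1 block, against 27.3% of inner peaks, 39.8% of 5′-most peaks and 31.5% of peaks on genes with 1 to 3 peaks. The share was lower for 3′-most peaks in each of 4 classes of exonic length. For peaks of up to 200 exonic bases it was 6.9% for 3′-most, 21.4% for inner and 30.8% for 5′-most peaks, and for peaks over 500 bases 25.7%, 34.0% and 52.2% in the same order of places. In the strongest of 5 classes of the authors' peak p it was 35.4% of 3′-most, 49.3% of inner and 63.8% of 5′-most peaks. Among 3′-most peaks the share was 1.65% within 500 bases of the annotated end, 3.47% between 500 and 1000, 15.5% between 1000 and 2000, 16.5% between 2000 and 5000 and 28.5% beyond. Peaks close to the end lay almost wholly in 1 block. The most divided peaks were those of the non-muscle myosin heavy chain genes MYH9, with 11 blocks, and MYH14, with 8 blocks, and of the signalling scaffold gene ITPRID2, with 5 blocks. Their centres lay 6647, 13730 and 6067 bases from the annotated ends.

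Peak length did not set the 3′-most peaks apart in the medians. Their median exonic length was 300 bases (quartiles 181 and 480), against 301 bases for inner and 300 bases for 5′-most peaks. The longest 3′-most peak had 2430 exonic bases and belonged to MYH9, and the 3′-most peak of AHNAK2 had 2009.

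Enrichment differed little between places in the gene. In the authors' deposited table the median enrichment of IP over input was 10.6-fold for 3′-most peaks (quartiles 5.38 and 16.9), 10.7-fold for inner, 10.4-fold for 5′-most and 10.1-fold for all peaks. Within a gene, the 3′-most peak was more enriched than the 5′-most in 544 genes and less in 590, with 6 equal. The median log2 ratio of the pair was -0.07, with quartiles of -1.01 and 1.04. The difference was at least 2-fold in 291 genes upward and in 291 genes downward. The 3′-most peak was the most enriched of its gene in 245 genes and the least in 252, against 273 and 242 for the 5′-most peak. It had the smallest peak p in 218 genes, against 309 for the 5′-most peak. Across genes, the log2 enrichment of the 3′-most peak correlated with that of the next peak upstream at Pearson r = 0.29. With that of the 5′-most peak it correlated at r = 0.15 (n = 1140 genes, peaks from the same libraries and transcript). In 37 genes the next peak overlaps the 3′-most one, and r = 0.29 was not computed without these genes.

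The most enriched 3′-most peaks reached over 100 times the input. In the authors' deposited table EXOC7, a subunit of the exocyst that tethers secretory vesicles, had 144-fold enrichment in its 3′-most peak. The CHD1 peak, on a chromatin remodeller gene, had 118-fold and the ENTPD1 peak, on a gene of an ectonucleotidase, 112-fold in the authors' deposited table. The EXOC7 and ENTPD1 peaks share bases with a peak of another gene. ZBED6 and ZC3H11A, at 134-fold and 132-fold in the authors' deposited table, share one locus on the same strand and are uncertain as separate genes. The log2 folds of these peaks between the arms were -0.33, 0.04, 0.64, 0.88 and 0.88 in that order in the authors' deposited table, and none was called. Among genes with a symbol, the least enriched were those of the keratin gene KRT8 (1.36-fold), the homeobox gene CUX1 (1.56-fold), the receptor gene FGFRL1 (1.57-fold), the inhibitor of differentiation gene ID1 (1.58-fold) and the splicing-associated gene SRRM2 (1.59-fold) in the authors' deposited table. An unnamed gene's peak at 1.55-fold, which shares bases with a peak of another gene, lay among them and was called at 0.38 (FDR 0.0055) in the authors' deposited table. Of the 5 with a symbol, ID1 was called, and by the authors' deposited table its log2 fold was -0.33 (FDR 0.0018). ID1 has 4 listed peaks that form overlapping pairs, and it no longer qualifies once overlapping peaks are merged. The same holds for EXOC7, whose 3′-most peak overlaps its next one.

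Enrichment was higher in 3′-most peaks far from the annotated end. Its median in the authors' deposited table was 8.72-fold for the 243 peaks within 500 bases, 9.56-fold for 173 peaks between 500 and 1000, 9.0-fold for 187 between 1000 and 2000, 11.4-fold for 261 between 2000 and 5000 and 12.9-fold for 221 beyond 5000. The quartiles overlapped widely, at 4.04 and 13.5 in the nearest class and 7.88 and 19.7 in the farthest. The median log10 p of the peak was -8.05 in the nearest class and -5.95 in the farthest, so the farther peaks had the higher enrichment and the weaker peak p.

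Between shALKBH5 and shNC cells, 77 of the 1140 3′-most peaks were called (6.75%, exact binomial 95% interval 5.37 to 8.37), against 8.23% of all listed peaks. Of these, 58 had a positive log2 fold (5.09%, against 5.74% of all peaks) and 19 a negative one (1.67%, against 2.49% of all peaks). These shares lie near or below the background. Inner peaks of the same genes were called positive in 3.83% and negative in 2.48%, and 5′-most peaks in 3.95% and 3.07%. Taken over all called peaks of these genes, 77 of 371 were 3′-most (20.8%), where 3′-most peaks are 20.1% of the peaks listed on them. The median log2 fold was 0.23 for 3′-most peaks (quartiles -0.55 and 0.87), 0.11 for inner, 0.14 for 5′-most and 0.14 for all peaks. At an FDR of at most 0.01, 48 3′-most peaks were called (4.21%, against 4.99% of all peaks). Of these, 37 were positive (3.25%, against 3.63% of all peaks) and 11 negative (0.965%, against 1.36% of all peaks). At an unadjusted p under 0.05, 201 passed (17.6%, against 19.9% of all peaks), 140 positive (12.3%, against 12.9% of all peaks) and 61 negative (5.35%, against 7.0% of all peaks). The deposited p never exceeds 0.773 and may be one-sided. With p doubled and adjusted again, 61 were called (5.35%, against 6.36% of all peaks), 45 positive (3.95%, against 4.57% of all peaks) and 16 negative (1.4%, against 1.78% of all peaks). A positive fold was listed for 676 of 1140 (59.3%), against 55.3% of all peaks, and 53.5% lay above the median of all peaks.

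The share called was highest in the strongest peaks. All listed peaks were divided by the authors' peak p into 5 classes of like size. In the strongest class, 23.4% of 175 3′-most peaks were called, against 21.8% of all peaks. Going down, it was 11.3% against 10.9%, 3.94% against 5.1%, 0.391% (1 of 256) against 2.25% and, in the weakest class, 0.794% (2 of 252) against 1.0%. Of the 3′-most peaks, 15.4% fell in the strongest class and 22.1% in the weakest. Called 3′-most peaks had a median log10 peak p of -43.8, against -6.31 for the rest, and a lower median enrichment, at 7.76-fold against 10.7-fold in the authors' deposited table.

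**Figure D2:**
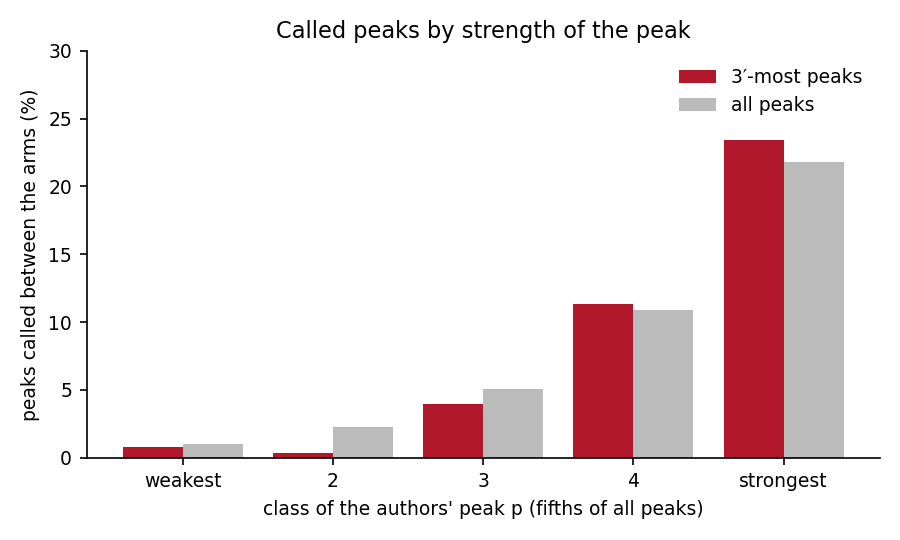
Bars give the share of peaks (in %) called between the arms at a deposited FDR of at most 0.05, for 3′-most peaks and for all peaks, in 5 classes of all peaks by the authors' peak p. In the strongest class the shares are 23.4% and 21.8%, and in the weakest 0.794% and 1.0%.

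The share called was lower in genes with 5 or more peaks. At the edge of the choice, 3′-most peaks of genes with 3 peaks, just outside, were called in 8.21% and those of genes with 4, just inside, in 8.91%. It was 4.71% of 276 genes with 5 peaks, 3.15% of 127 genes with 6 and 4.58% of 131 genes with 7 or more. The median log10 peak p moved as well, at -7.52 for 3 peaks, -7.12 for 4, -6.29 for 5, -6.68 for 6 and -6.64 for 7 or more. The part of peak strength in the share called was not tested.

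The largest positive called fold of a 3′-most peak was on STK4, a kinase of the Hippo pathway. By the authors' deposited table its 3′-most peak stood at 4.44 on the log2 scale (FDR 0.0079). Its other 3 peaks stood at 0.48, 1.42 and 0.20 in the authors' deposited table and were not called. The STK4 peak itself was weak, with 3.19-fold enrichment and a log10 peak p of -3.62 in the authors' deposited table. C16orf46 stood at 3.81 (FDR 0.00015) in the authors' deposited table, but its peak shares bases with a peak of an unnamed gene on the same strand. RAB5A, a GTPase of early endosomes, stood at 3.13 (FDR 0.00031) in the authors' deposited table. Among RAB5A, FOXO3, AXIN2, MYC and ALKBH5, it alone has 4 or more listed peaks.

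By the authors' deposited table ARHGAP32, a gene of a GTPase-activating protein, stood at 2.73 (FDR 0.03) at a peak of 42.2-fold enrichment, while its other 5 peaks ranged from -0.36 to 1.77 and were not called. HNRNPUL2, which encodes an RNA-binding protein of the hnRNP U family, had 2.27 (FDR 4.2e-05) at its 3′-most peak, and its other 4 peaks lay between -0.69 and 0.28 in the authors' deposited table. Of those 4, 3 share bases with a peak of another gene on the same strand. LUZP1 stood at 2.18 (FDR 0.029), the actin-associated PDLIM3 at 2.08 (FDR 0.026), SHROOM3, an actin regulator of apical constriction, at 1.94 (FDR 0.025) and the adherens junction gene VEZT at 1.87 (FDR 0.0085) in the authors' deposited table. MAPKAP1, a subunit gene of the mTORC2 kinase complex, stood at 1.93 (FDR 0.035) in the authors' deposited table, and its peak shares bases with a peak on the opposite strand. With p doubled, ARHGAP32, LUZP1, PDLIM3 and MAPKAP1 were no longer called.

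The largest negative called fold was on TBC1D16, whose product activates the GTPase of RAB proteins. By the authors' deposited table its 3′-most peak, centred 195 bases from the annotated end, stood at -5.12 (FDR 2.3e-05). Its other 4 peaks stood at -1.38, 1.12, 0.57 and 0.31, going upstream, in the authors' deposited table, and none was called. GRHL2, an epithelial transcription factor gene, had -4.02 (FDR 0.022) in the authors' deposited table, with its uncalled peaks at -2.39, -0.90 and 1.07 going upstream. The 3′-most GRHL2 peak had a log10 peak p of -6.12 in the authors' deposited table and was centred 12598 bases from the annotated end. VPS18, a core subunit gene of the endosomal HOPS and CORVET tethers, had -1.61 (FDR 3.2e-05) at its 3′-most peak and -1.05 (FDR 0.00015) at the next in the authors' deposited table. In MAP3K11, a kinase gene upstream of JNK, the same pair stood at -2.18 (FDR 2.3e-09) and -1.55 (FDR 0.016) in the authors' deposited table. In VPS18 and MAP3K11 the 2 negative calls were on successive listed peaks.

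RBM12B, an RNA-binding protein gene whose peak shares bases with one on the opposite strand, stood at -1.70 (FDR 0.018) at its 3′-most peak in the authors' deposited table, where its other 3 peaks lay between 0.14 and 0.58. CCDC57 stood at -2.01 (FDR 0.017) 140 bases from its annotated end in the authors' deposited table, and 6 of its other 7 peaks had positive folds, none called. C7orf50 stood at -1.70 (FDR 4.9e-05) in the authors' deposited table, at a peak of 2.09-fold enrichment centred 19470 bases from the annotated end. All 19 negative 3′-most peaks had 1 exon block, whereas 16 of the 58 positive ones (27.6%) and 13.7% of the uncalled ones had more. The median log10 peak p was -53.3 for positive, -26.6 for negative and -6.31 for uncalled 3′-most peaks. Split peaks made up 6.35% of the 3′-most peaks in the weakest class of peak p and 35.4% in the strongest. The part of peak strength in the split share by call was not tested. Of those placed in their gene, 12 of 18 negative, 22 of 53 positive and 382 of 1014 uncalled 3′-most peaks were centred within 1000 bases of the annotated end (66.7%, 41.5% and 37.7%).

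**Figure D3:**
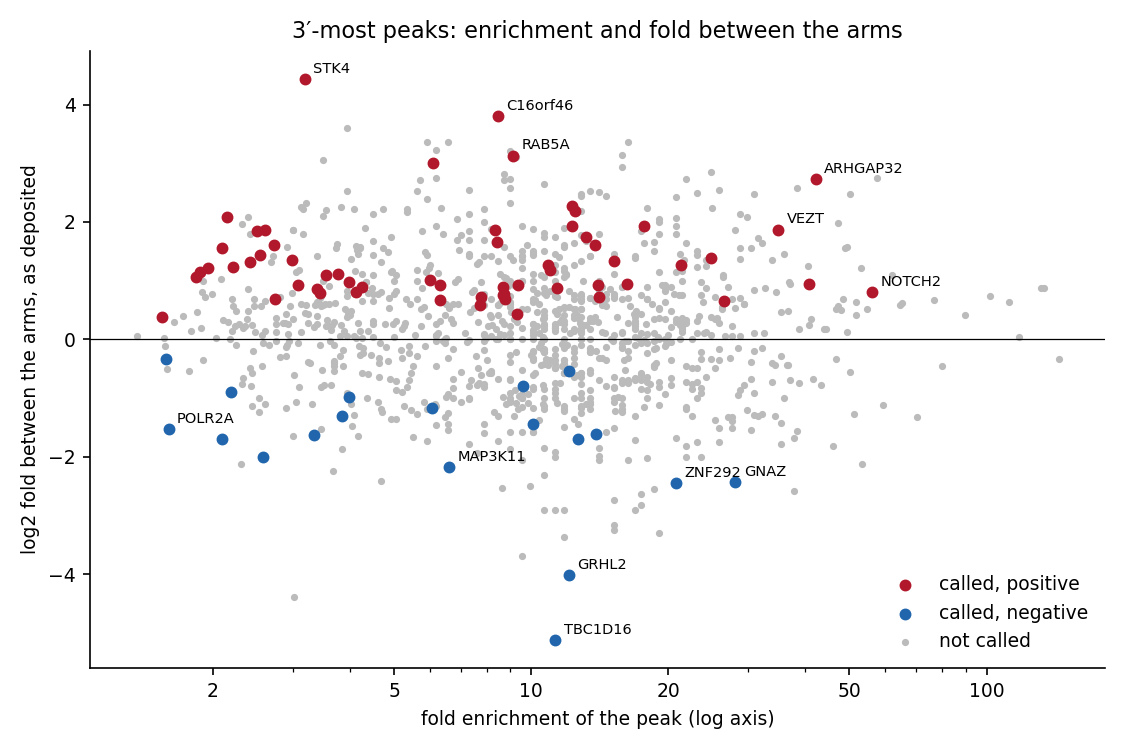
Each point is 1 of the 1140 3′-most peaks, with the authors' fold enrichment on the x axis (log axis) and the authors' log2 fold between the arms, numerator not stated, on the y axis. The 58 positive calls and 19 negative calls spread over enrichments from 1.55 to 56.1, and TBC1D16 (-5.12) and STK4 (4.44) mark the ends.

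Further called 3′-most peaks, chosen after their values were seen, follow. POLR2A, the gene of the largest RNA polymerase II subunit, had -1.53 (FDR 1e-35) and, at the next peak upstream, -0.77 (FDR 7.9e-15) in the authors' deposited table, although these peaks were enriched only 1.60-fold and 1.25-fold. RELA, the p65 subunit gene of NF-κB, stood at 1.74 (FDR 3e-05) and the adaptor gene SHC1, whose peak shares bases with one on the opposite strand, at 1.86 (FDR 7.9e-18) in the authors' deposited table. EPAS1, the hypoxia factor gene HIF-2α, stood at 1.61 (FDR 0.023) and AP3S1, an adaptor subunit gene of endosomal sorting, at 1.31 (FDR 4e-24) in the authors' deposited table. These 4 positive peaks were between 104 and 1120 bases from the annotated end. Of all 77 called, 15 share bases with a peak of another gene, so their gene is uncertain.

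Over the 5 gene lists, 4 of 55 3′-most peaks were called (7.27%, against 6.75% of all 3′-most peaks and 8.23% of all peaks). The lists were chosen with earlier results of these data known, so their shares are not independent evidence. Of 12 genes of cadherins, Notch and Wnt signalling with a 3′-most peak, 3 were positive and 0 negative (3 of 12 called, against 8.23% of all peaks), with a median log2 fold of 0.65 against 0.14 for all peaks. These were the giant cadherin gene FAT1 at 0.69 (FDR 1.3e-15), the Notch receptor gene NOTCH2 at 0.81 (FDR 0.011) and the Wnt transcription factor gene TCF7L2 at 1.14 (FDR 0.0051) in the authors' deposited table. CELSR3 stood at 1.94 and was not called (FDR 0.19) in the authors' deposited table. In FAT1 all 7 peaks had positive folds, between 0.25 and 1.19 in the authors' deposited table, and 6 of them were called. In NOTCH2 the 3′-most peak had 56.1-fold enrichment, and its other 3 peaks, which were not called, stood at 0.14, -1.59 and -1.32 going upstream in the authors' deposited table. In TCF7L2 the 3′-most peak was enriched 1.87-fold, and the other 5 peaks lay between -1.13 and 0.33 in the authors' deposited table.

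Of 15 giant scaffold and linker genes, 1 was called positive and 0 negative (6.67%, against 8.23% of all peaks). Of these 15, 4 had a deposited p under 0.05, against 19.9% of all peaks. This list's median log2 fold was 0.36 against 0.14 for all peaks. EPPK1 and the plakin gene PLEC stood at -1.10 (FDR 0.091) and -0.41 (FDR 0.089), and AHNAK2 at 0.36 (FDR 0.23), in the authors' deposited table. Enrichment in this list had a median of 3.98-fold, against 10.6-fold for all 3′-most peaks. Of 18 chromatin regulator genes none was called, against 8.23% of all peaks, and their median fold was 0.06 against 0.14 for all peaks. Only 1 of the 18 had a deposited p under 0.05, against 19.9% of all peaks. CHD7, NSD2 and SETD1A stood at -1.27, 1.59 and -0.89 in the authors' deposited table. Of 5 growth factor and RAS signalling genes none was called, against 8.23% of all peaks, and their median fold was 0.10. None of these 5 had a deposited p under 0.05, against 19.9% of all peaks. With 5 peaks these counts cannot be set apart from those shares. RPTOR stood at -1.22, SPRY4 at 0.27 and IGF1R at 0.10 in the authors' deposited table.

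Of the m6A machinery 5 genes had a 3′-most peak by this choice, and their median log2 fold was 0.55 against 0.14 for all peaks. None was called, against 8.23% of all peaks, and none had a deposited p under 0.05, against 19.9% of all peaks. With 5 peaks these counts cannot be set apart from those shares. METTL16, an m6A methyltransferase gene, stood at 2.75 (FDR 0.34), the writer subunit genes ZC3H13 at 1.46 (FDR 0.61) and VIRMA at 0.55 (FDR 0.53), the nuclear reader gene YTHDC1 at 0.48 (FDR 0.35) and HNRNPA2B1 at -0.33 (FDR 0.39) in the authors' deposited table. ZC3H13 lies outside the rule for named genes and is given to complete the list. HNRNPA2B1 is uncertain here, since its peak shares bases with a peak of another gene. The METTL16 peak was weak, with a log10 peak p of -4.87 in the authors' deposited table. It contains the next listed peak whole, and METTL16 no longer qualifies once overlapping peaks are merged.

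The fold of the 3′-most peak was weakly related to the folds elsewhere on the same gene. Across 1140 genes the log2 fold of the 3′-most peak correlated with that of the 5′-most peak at Pearson r = 0.07 and a Spearman coefficient of 0.10, and with that of the next peak upstream at r = 0.09 and a Spearman coefficient of 0.08. These are descriptions over genes, whose peaks share libraries and a transcript. The 3′-most and 5′-most peaks had the same sign in 623 genes (54.6%), opposite signs in 490 and a fold of exactly 0 in 27. In 141 genes every listed peak had the same sign, and in 92 genes the 3′-most peak was opposite to every other peak, 45 with the 3′-most peak positive and 47 with it negative.

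Overlapping listed peaks cover largely the same bases, so their folds are not separate measurements. In 30 of the 37 overlapping pairs at least 90% of the exonic bases of the shorter peak were shared. In these 37 genes the 3′-most peak overlapped the next listed peak, and the folds correlated at r = 0.91 with the same sign in 36. In 205 genes the 2 peaks were separated by at most 200 bases, the correlation was r = 0.13, and the sign was the same in 98 (47.8%). It was the same in 57.0% of 351 genes with gaps over 200 and up to 1000 bases, 52.1% of 263 with gaps up to 5000 and 47.9% of 284 beyond. Where both peaks had a log10 peak p of at most -20, the sign was the same in 9 of 10 overlapping pairs (r = 0.60), 8 of 20 pairs within 200 bases (r = 0.01), 17 of 27 up to 1000 (r = -0.01), 17 of 27 up to 5000 (r = 0.41) and 14 of 22 beyond (r = -0.22).

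**Figure D4:**
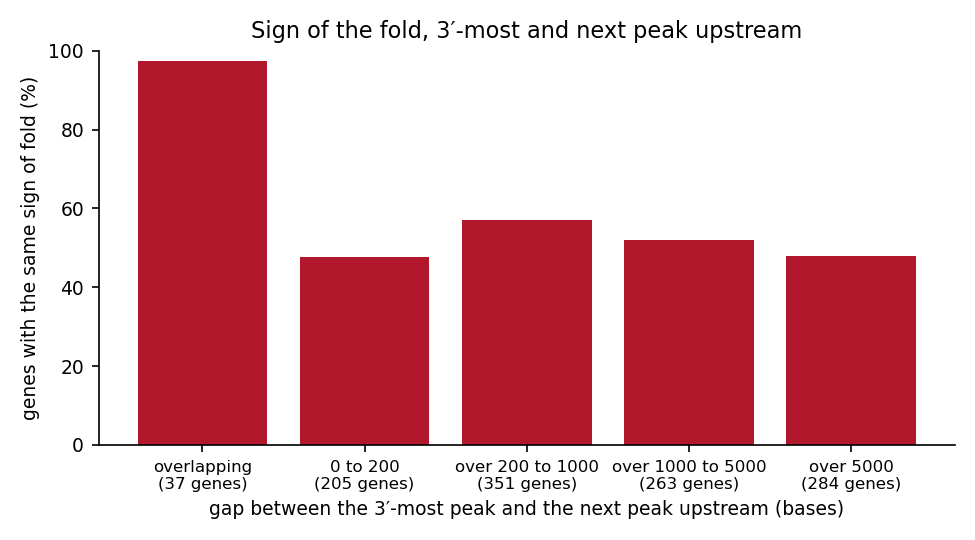
Bars give the share of genes (in %) in which the 3′-most peak and the next peak upstream have the same sign of log2 fold, by the genomic gap between them in bases. It is 97.3% where the 2 listed peaks overlap and between 47.8% and 57.0% where they do not.

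Of the 77 genes called at the 3′-most peak, 44 had no other called peak (57.1%), against 861 of the 1063 genes with an uncalled 3′-most peak (81.0%). Of the 58 genes positive at the 3′-most peak, 34 had no other called peak, 17 had another positive one and 9 a negative one. Of the 19 genes negative there, 10 had no other called peak, 7 had another negative one and 3 a positive one. Among the 1063 genes with an uncalled 3′-most peak, 11.8% had a positive and 8.28% a negative peak elsewhere. In all, 279 of the 1140 genes had a called peak, and in 44 of them the 3′-most peak was the only one called. The counts of other called peaks include listed peaks that overlap the 3′-most one and are not separate measurements. Such peaks were called in ID1 (-0.29, FDR 0.0085) and GJC1 (0.93, FDR 0.0027) in the authors' deposited table. How many of the other called peaks overlap in this way was not counted.

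In 12 genes the 3′-most peak was called in the opposite direction to another peak, and 8 of them are described here. In GNAZ, a G protein α subunit gene, the 3′-most peak stood at -2.43 (FDR 0.032), while the next at 2.10 (FDR 0.026) and the 5′-most at 2.72 (FDR 0.047) were positive in the authors' deposited table. The transcriptional regulator gene NACC1 stood at -1.63 (FDR 4.5e-05) at its 3′-most, 0.60 (FDR 0.035) at its next and -0.70 (FDR 0.00045) at its 5′-most peak in the authors' deposited table. DNAJB1, a heat shock chaperone gene, stood at 0.93 (FDR 2e-07) at its 3′-most, 0.29 (FDR 0.0022) at its next and -0.59 (FDR 3.1e-08) at the one after that, going upstream, in the authors' deposited table. These DNAJB1 peaks were centred 255, 1200 and 2024 bases from the annotated end, so calls of both signs lay within 2024 bases of the end.

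In ZFP36L1, an mRNA decay factor gene, the 3′-most peak stood at 0.67 (FDR 0.047), an inner peak at -0.78 (FDR 2.1e-09) and the 5′-most at 1.85 (FDR 0.00023) in the authors' deposited table. RAB5A had 3.13 at its 3′-most and -2.60 (FDR 0.024) at its second peak from the 5′ end in the authors' deposited table. In RAB11FIP1, a RAB11 effector gene whose 3′-most peak shares bases with one on the opposite strand, and in AKAP8L the called pair was the 3′-most peak, at 0.72 and 1.22, and the 5′-most peak, at -0.80 and -1.17, in the authors' deposited table. The zinc finger gene ZNF292 had the reverse order, with -2.45 at its 3′-most and 1.39 at its 5′-most peak in the authors' deposited table. With p doubled, the 3′-most calls of GNAZ, ZFP36L1, RAB11FIP1 and ZNF292 were lost, while those of RAB5A, NACC1, DNAJB1 and AKAP8L were kept. The positive NACC1 peak was then no longer called, so of these 8 genes an opposite pair remained in RAB5A, DNAJB1 and AKAP8L. In the authors' deposited table the AKAP8L 3′-most peak was weak, with 1.95-fold enrichment and a log10 peak p of -5.65. The negative RAB5A peak had a log10 peak p of -5.58 there. With p doubled the FDR of these 2 peaks was 0.046 and 0.048, close to the limit.

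**Figure D5:**
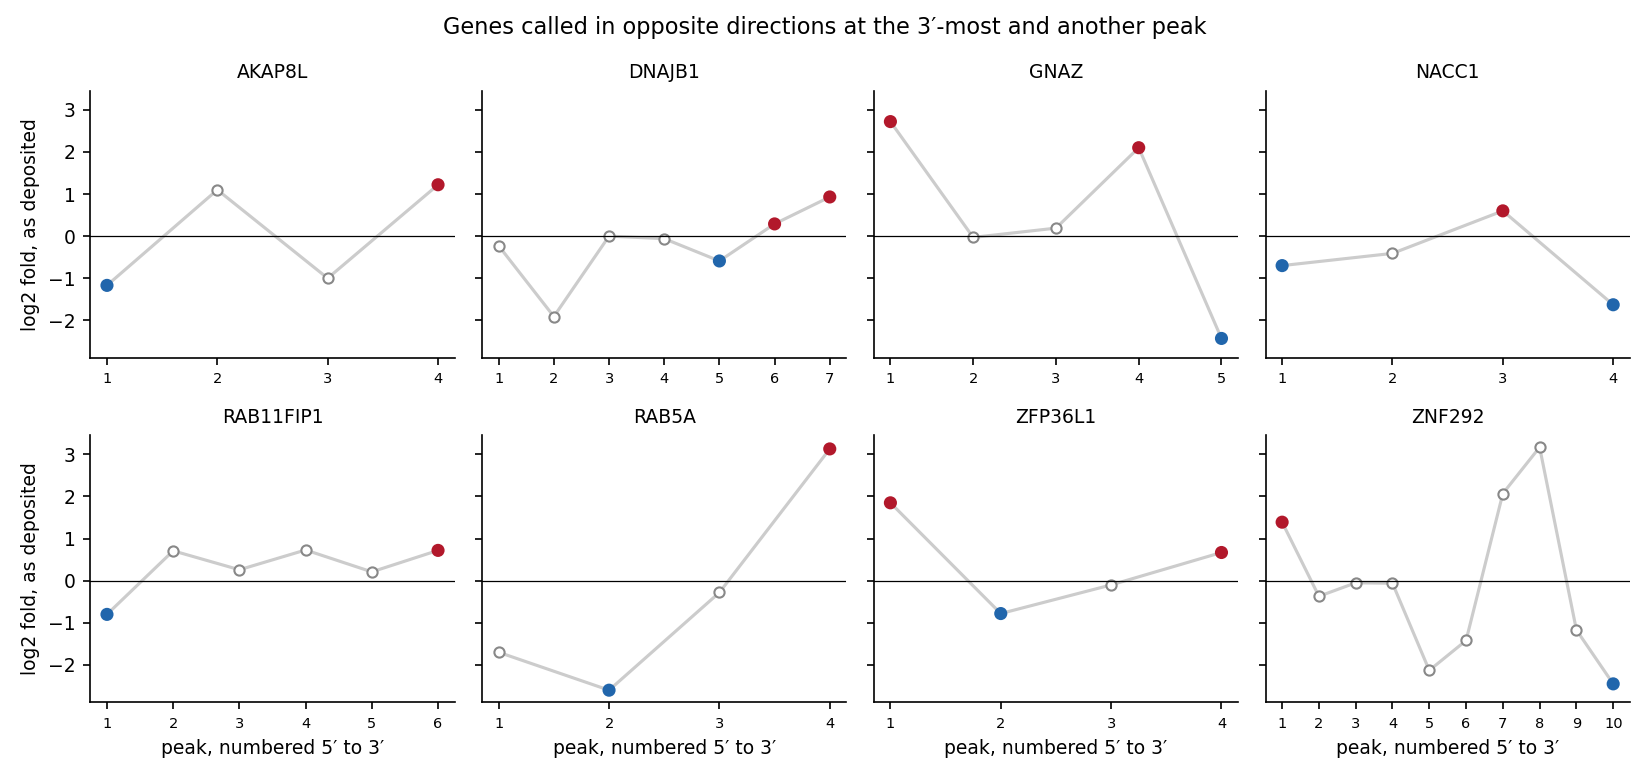
For each of 8 genes, points give the authors' log2 fold (y axis, numerator not stated) of every listed peak, numbered from the 5′ to the 3′ end (x axis); red points are positive calls, blue points negative calls and open points uncalled. The 3′-most peak is red in 5 genes and blue in GNAZ, NACC1 and ZNF292, with a call of the other colour elsewhere in each gene.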

How the data were processed

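The values are 1 peak list for the whole series, deposited by the authors, with exon blocks and gene names. Per the submitters' processing notes, GRCh38, HOMER 4.9.1 and BWA 0.7.12 were used, with no role stated. The peak caller was not given in the sources used here. Per the file headers, the deposited values are a peak p-value, its logarithm as a score, a linear fold (ratio) of enrichment read as IP over input, and a log2 fold between the arms with log10 p and FDR scores. Columns of block number and coordinates (other) were deposited too, and coordinates are 1-based here.

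The members and lists were chosen with earlier results of these data known. Ties for the 3′-most peak (1 gene) went to the smaller peak p. Genes were matched by symbol or synonym to RefSeq genes of GRCh38.p14 on the same chromosome. Distances run from the peak's centre to that gene's outermost 3′ bound. Shared bases were counted over exon blocks, at least 1 base on either strand. Benjamini-Hochberg adjustment of doubled p ran over all peaks. Intervals are exact (Clopper-Pearson) and cover counting error only. Named genes are the 10 largest called folds of each sign, the 5 genes with most peaks, the 5 highest and 5 lowest enrichments, genes called in opposite directions, up to 4 genes of each of 5 lists by FDR, and the study's genes. Python 3.11.15, pandas 2.3.3 and scipy 1.17.1 were used, and the scripts were tested on simulated peaks. Some genes that this rule names are not reported here.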

Additional observations from a re-analysis of the deposited data

How the results depend on the processing

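No paired analysis was possible because the table holds no value per library, and for that reason no library could be left out. Motif counts over whole peaks were not run, since no genome was used. Of 48 alternatives, 31 stayed within 1.5 times the count or within the 95% interval of the share. A count reversed was 0, but counts of calls and shares within a window have no direction to reverse. The count of called 3′-most peaks (77, of which 58 positive and 19 negative) moves with the number of genes taken and with the threshold. It was 193 (150 and 43) over the 2553 genes with 3 or more peaks and 23 (18 and 5) over the 534 genes with 5 or more. Over the 1140 genes it was 48 (37 and 11) at an FDR of 0.01 and 201 (140 and 61) at an unadjusted p of 0.05. With p doubled it was 61 (45 and 16). Of all listed peaks 8.23% were called at an FDR of 0.05 and 4.99% at 0.01. At an unadjusted p of 0.05 the share of all peaks was 19.9%, and with p doubled 6.36%. The share of split peaks was 11.8% over genes with 5 or more peaks. The share near the annotated end was 22.4% within 500 bases, 55.6% within 2000 and 45.0% within 1000 of the peak's outer edge. The share above the median of all folds, chosen after seeing the data, was 53.5%, against 59.3% above 0. No counts were used here, so what depth limits is unknown.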

Other observations

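The share of listed peaks that are 3′-most peaks of such genes was between 4.19% and 6.11% on the other chromosomes, and 2.37% on chromosome 18 (8 of 337 peaks). Some 3′-most peaks lie far from the annotated end of the gene. The centre of the RANBP2 peak was 1059052 bases from the outermost RefSeq bound, and that of the called LRBA peak 560101 bases. Such distances depend on which gene bound the annotation gives and are not read as the length of the transcript measured. By the authors' deposited table LRBA, a gene of vesicle trafficking, stood at 1.18 (FDR 0.00058). The 1140 peaks form 1131 separate loci by their outer bounds, and 157 share bases with a listed peak of another gene, 56 on the same strand and 103 on the opposite one.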
